A study of Mus musculus with 21 samples.

Results

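The hypertrophic chondrocyte genes described here are Col10a1, Ihh, Pth1r, Mmp13 and Panx3, 5 genes of the 26852 in the deposited table, chosen by name as known genes of these cells, with earlier results of these data known. All 5 were in the table, and 4 of the 5 were among the 12976 genes tested, because Ihh was below the filter on low values. Hypertrophic chondrocytes are the enlarged cells at the end of the growth plate cartilage, where the matrix mineralizes before bone replaces it. In the growth plate, Ihh from prehypertrophic cells raises the parathyroid hormone-related protein Pthlh, which acts through Pth1r and delays the entry of proliferating chondrocytes into hypertrophy. Col10a1, Panx3 and Mmp13 mark hypertrophic cells, and Pth1r, Panx3 and Mmp13 are also expressed by osteoblast lineage cells, so none of these 3 is a marker of cartilage alone.

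The study sequenced RNA from Nestin-low mesenchymal cells sorted from mouse bone marrow, with 3 libraries in each of 7 groups and 21 in all. The hosts were NSG mice, an immunodeficient strain, with a green fluorescent reporter driven by Nestin regulatory sequences. Those that received leukemia cells were aged 8 to 12 weeks at transplantation, with no conditioning beforehand, so their own marrow and stroma were in place. Age at harvest is not given by group, and its part in differences between stages was not tested. The ctrl mice carried no leukemia, and the other groups received HL60 or ML1, human acute myeloid leukemia cell lines that had been made to release a lipid-permeable mCherry taken up by neighboring cells. Nestin-low cells were taken early in the disease as labeled (early ch+) and unlabeled (early ch-) cells, and late in the disease without sorting by mCherry. Human and mouse hematopoietic cells were depleted with beads beforehand. The paper describes the late stage as one at which every cell touches leukemia cells. The treatment field of the ML1 late libraries reads unengrafted, while their titles and time point give them as late, and they were kept as late. The ctrl and late cells were not split by label. The extraction text of all 21 samples speaks of endothelial cells positive for CD31, while titles and cell type name Nestin-low mesenchymal cells, and the titles were followed. The labels do not say that replicates are separate mice, so each p measures the spread between samples. Unlabeled cells were taken from the marrow that also held the labeled cells, but the labels do not say which libraries belong together, so the tests of labeled against unlabeled cells treat them as independent. Replicates are named by the number in their labels.

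All values are regularized log2 read counts as deposited, so a difference of 1 is a doubling, and read depth per library is unknown because read counts were not used here. After conversion from log2, the sums over all genes, in mega units, were 11.9 to 14.2 in ctrl, 12.3 to 14.7 in early ch-, 11.2 to 12.6 in early ch+ and 7.26 to 9.02 in late libraries. The late sums lay below all others. Nestin itself (Nes) had a median of 7.43 in ctrl and 7.36 in late libraries and did not pass the test between them. With the lines apart, its mean was 6.92 in HL60 late (6.66 to 7.38) and 7.68 in ML1 late (7.34 to 7.87), on either side of 7.39 in ctrl. A gene was called when its adjusted p, from limma over all tested genes, was under 0.1. Where all libraries of a group are said to lie above or below another group, the share of all tested genes doing so was not counted. Fewer cells of a type and less RNA per cell cannot be told apart in these bulk libraries.

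A pair of libraries had the highest values of their groups for Col10a1 and other cartilage genes. The rule that flags outlying libraries below did not flag replicate 523 for Col10a1, and it was not applied to ctrl. HL60 early ch+ replicate 523 had 8.11 for Col10a1 while the other 5 early ch+ libraries had 3.13 to 5.89. It was also the highest early ch+ library for Acan, the main cartilage proteoglycan, and for Col2a1, the main cartilage collagen, at 14.44. The ctrl replicate 373 had 8.99 for Col10a1, above the 7.28 and 7.02 of the other ctrl libraries, and the highest summed cartilage matrix level of all 21 libraries, at 17.84. For Col10a1, results that these libraries entered are given with and without them where they moved.

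In late disease Pth1r, Col10a1 and Panx3 fell and Mmp13 rose against ctrl. Early in the disease, labeled cells had less Col10a1, Pth1r and Panx3 than unlabeled cells, while Mmp13 was at the same level in both. Unlabeled cells of both lines together overlapped with ctrl for each of the 5 genes and none passed the test, although the ML1 unlabeled libraries lay below ctrl for Ihh and Panx3.

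Ihh, the hedgehog ligand of the growth plate, was barely detected. Its mean over the 21 libraries was 2.32, under the limit of 3.32 that a gene needed to be tested, so its tests come from a fit without that limit. In ctrl, Ihh was 3.21, 2.82 and 2.98 in replicates 373, 374 and 375. In HL60 early ch-, Ihh was 3.49, 3.29 and 1.82 in replicates 527, 528 and 529, and in ML1 early ch- it was 2.02, 2.58 and 2.34 in replicates 543, 544 and 546. The unlabeled cells thus ran from above the highest ctrl library down to nearly the lowest value in the table for this gene. In HL60 early ch+, Ihh was 1.83, 1.95 and 1.81 in replicates 523, 524 and 525, and in ML1 early ch+ it was 2.21, 1.82 and 1.83 in replicates 538, 539 and 541. In HL60 late, Ihh was 3.09, 2.44 and 1.81 in replicates 397, 398 and 399, and in ML1 late it was 1.80, 1.80 and 1.81 in replicates 581, 582 and 583. All 6 early ch+, all 3 ML1 early ch- and all 3 ML1 late libraries were below the ctrl libraries, whereas HL60 early ch- and HL60 late overlapped with ctrl. Regularized values of a gene with few or no reads gather at a lowest value, and 9 libraries were within 0.05 of the lowest value of Ihh (1.80), namely 1 early ch-, 4 early ch+ and 4 late libraries and 0 ctrl libraries. Differences from such libraries depend on that regularization and are no bound on the change.

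For Ihh, the group means were 3.00 ± 0.19 in ctrl (SD, n = 3), 2.59 ± 0.67 in early ch- (n = 6), 1.91 ± 0.16 in early ch+ (n = 6) and 2.13 ± 0.54 in late libraries (n = 6). Between late and ctrl, Ihh differed by -0.88 (95% confidence interval -1.57 to -0.18, limma adjusted p 0.139, not called). Without HL60 late replicate 397 this difference was -1.07 (limma adjusted p 0.0374), and without HL60 early ch- replicate 527, which changes only the estimate of spread, the adjusted p was 0.0955. Ihh in early ch+ differed from ctrl by -1.09 (95% confidence interval -1.79 to -0.40, limma adjusted p 0.131), with no overlap between the 6 and the 3 libraries. This comparison reached adjusted p 0.0801 without HL60 late replicate 397 and 0.0895 without HL60 early ch- replicate 527 (limma). Early ch+ and early ch- overlapped and differed by -0.68 for Ihh (95% confidence interval -1.25 to -0.11, limma adjusted p 0.328). With the lines apart, Ihh differed between ML1 late and ctrl by -1.20 (95% confidence interval -1.96 to -0.44, limma adjusted p 0.0536), and leaving out any of ML1 late replicates 581, 582 and 583 or ctrl replicates 373 and 375 brought the adjusted p to between 0.108 and 0.133. After rescaling of each library to the mean total, this difference was -0.38 (limma adjusted p 0.303), Ihh in late against ctrl was at -0.19, and Ihh in late against early ch+ was called higher at 0.83 (limma adjusted p 0.00459), where it had been 0.22 (limma adjusted p 0.72). Other alternatives that called Ihh in the pooled comparisons are given with the sensitivity results. For labeled cells against ctrl, Ihh was at -1.14 in HL60 (limma adjusted p 0.183) and -1.05 in ML1 (limma adjusted p 0.22), and without HL60 early ch- replicate 529 both were called (limma adjusted p 0.0499 and 0.0614). Against early ch- of the same line, Ihh in early ch+ was at -1.003 in HL60 (limma adjusted p 0.312), or -1.52 without replicate 529 (limma adjusted p 0.0169), and at -0.36 in ML1 (limma adjusted p 0.805). For HL60 late against ctrl the difference in Ihh was -0.56 (limma adjusted p 0.591), and the difference between the lines, HL60 late minus ML1 late, was 0.64 (limma adjusted p 0.691, not called). Leaving out HL60 late replicate 397 or 399 brought the first to -0.88 or -0.24 and the second to 0.32 or 0.96, none of them called.

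Pth1r, the receptor for parathyroid hormone and for Pthlh, was high in every group and had the narrowest spread of the 5 genes in ctrl and in both early groups. In ctrl, Pth1r was 11.12, 11.08 and 10.93. In HL60 early ch- it was 10.78, 11.19 and 10.93, and in ML1 early ch- it was 11.03, 11.08 and 11.00. The unlabeled libraries overlapped with ctrl and reached beyond it at both ends. In HL60 early ch+, Pth1r was 10.52, 10.25 and 10.43, and in ML1 early ch+ it was 10.35, 10.48 and 10.43. Every labeled library was below every ctrl and unlabeled library, and the lines did not differ. In HL60 late, Pth1r was 9.79, 10.05 and 9.64, and in ML1 late it was 9.13, 8.65 and 8.98. The late libraries were below all early ch+ libraries, and the ML1 late libraries were below the HL60 late ones.

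Pth1r had group means of 11.04 ± 0.10 in ctrl (SD, n = 3), 11.00 ± 0.14 in early ch- (n = 6), 10.41 ± 0.10 in early ch+ (n = 6) and 9.37 ± 0.54 in late libraries (n = 6). It fell by 1.67 between ctrl and late (95% confidence interval -2.07 to -1.27, limma adjusted p 4.22e-07), lower in 6 of 6 late libraries. After rescaling to the mean total, the difference between late and ctrl was -0.98 (limma adjusted p 6.51e-05). Labeled cells had 0.59 less than unlabeled cells, a difference of -0.59 (95% confidence interval -0.92 to -0.26, limma adjusted p 0.0261), with 6 of 6 below all unlabeled libraries. With no filter on low values this call ended (limma adjusted p 0.102). Against ctrl, early ch+ differed by -0.63 (95% confidence interval -1.03 to -0.23, limma adjusted p 0.0687). That call ended without ctrl replicate 373, 374 or 375, HL60 early ch+ replicate 524 or ML1 early ch+ replicate 538, each left out alone, with differences of -0.69 to -0.59 and limma adjusted p from 0.105 to 0.198. It also ended with no filter, without the trend and with library weights (limma adjusted p 0.153 to 0.188). From early ch+ to late, Pth1r fell by 1.04 (95% confidence interval -1.37 to -0.71, limma adjusted p 1.63e-05), and after rescaling to the mean total this difference was -0.42 (limma adjusted p 0.0143). Early ch- and ctrl differed by -0.04 (95% confidence interval -0.44 to 0.36, limma adjusted p 0.96), or by 0.00293 without HL60 early ch- replicate 527.

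Col10a1, the network-forming collagen X that hypertrophic chondrocytes lay down, had the widest spread of the 5 genes in ctrl and in both early groups. In ctrl, Col10a1 was 8.99, 7.28 and 7.02. In HL60 early ch- it was 9.81, 9.67 and 7.93, and in ML1 early ch- it was 8.94, 6.84 and 9.50. Unlabeled cells overlapped with ctrl and held the highest values of the series, with 3 libraries above every ctrl library. In HL60 early ch+, Col10a1 was 8.11, 3.58 and 3.13, and in ML1 early ch+ it was 3.94, 3.22 and 5.89. Apart from replicate 523, every labeled library was below every ctrl and unlabeled library. In HL60 late, Col10a1 was 5.76, 5.41 and 4.59, and in ML1 late it was 4.55, 4.31 and 4.23. The late libraries were all below the ctrl and unlabeled libraries and lay within the range of the labeled ones.

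Col10a1 had group means of 7.77 ± 1.07 in ctrl (SD, n = 3), 8.78 ± 1.18 in early ch- (n = 6), 4.64 ± 1.98 in early ch+ (n = 6) and 4.81 ± 0.63 in late libraries (n = 6). From early ch- to early ch+ it fell by 4.14 (95% confidence interval -5.42 to -2.86, limma adjusted p 3.71e-05), the largest early difference among the 5 genes. Without replicate 523 this difference was -4.83 (limma adjusted p 1.82e-07), and without ctrl replicate 373 it was -4.14 (limma adjusted p 3.89e-05). Late and ctrl differed by -2.96 for Col10a1 (95% confidence interval -4.52 to -1.39, limma adjusted p 0.0065), lower in 6 of 6 late libraries. This was -2.96 without replicate 523 (limma adjusted p 0.000554) and -2.34 without ctrl replicate 373 (limma adjusted p 0.0745). Early ch+ and ctrl differed by -3.12 (95% confidence interval -4.69 to -1.55, limma adjusted p 0.0148), and 5 of 6 labeled libraries were below all ctrl libraries. That difference was -3.81 without replicate 523 (limma adjusted p 0.000192), and without ctrl replicate 373 it was -2.51 and no longer called (limma adjusted p 0.138). The adjusted p for the same difference was 0.104 when genes of all levels entered the limma fit. Col10a1 in early ch- minus ctrl was 1.02 (95% confidence interval -0.55 to 2.58, limma adjusted p 0.657), or 1.63 without ctrl replicate 373 (limma adjusted p 0.49) and 0.64 without ctrl replicate 375 (limma adjusted p 0.863). Late minus early ch+ was 0.17 (95% confidence interval -1.11 to 1.44, limma adjusted p 0.912) and 0.86 without replicate 523 (limma adjusted p 0.311), and the interval holds changes of 1 in either direction. This difference was below 0 without HL60 early ch+ replicate 524 (-0.05) or 525 (-0.14), HL60 late replicate 397 (-0.03) or ML1 early ch+ replicate 539 (-0.12).

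Mmp13, the collagenase that cleaves cartilage and bone collagen, was the only member to rise. In ctrl, Mmp13 was 12.28, 12.14 and 12.82. In HL60 early ch- it was 12.48, 12.04 and 12.51, and in ML1 early ch- it was 12.16, 12.22 and 12.31. The unlabeled libraries lay among the ctrl libraries or just under them. In HL60 early ch+, Mmp13 was 12.31, 12.00 and 12.51, and in ML1 early ch+ it was 12.31, 12.61 and 12.08. All 15 ctrl and early libraries fell in one band, in which neither the label nor the line could be read. In HL60 late, Mmp13 was 13.83, 14.14 and 13.94, and in ML1 late it was 13.64, 13.46 and 13.47. Every late library was above all ctrl and early libraries, and HL60 late libraries were above ML1 late ones.

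Mmp13 had group means of 12.41 ± 0.36 in ctrl (SD, n = 3), 12.29 ± 0.19 in early ch- (n = 6), 12.30 ± 0.24 in early ch+ (n = 6) and 13.75 ± 0.27 in late libraries (n = 6). It was higher in late than in ctrl by 1.34 (95% confidence interval 1.00 to 1.67, limma adjusted p 8.19e-07), in 6 of 6 libraries, and higher than in early ch+ by 1.45 (95% confidence interval 1.17 to 1.72, limma adjusted p 3.9e-09). After rescaling to the mean total, the difference between late and ctrl was 2.03 (limma adjusted p 6.4e-11). Labeled minus unlabeled cells gave 0.02 for Mmp13 (95% confidence interval -0.26 to 0.29, limma adjusted p 0.973), so an early change of more than 0.29 in either direction lay outside the interval. Early ch+ minus ctrl was -0.11 (95% confidence interval -0.45 to 0.23, limma adjusted p 0.801) and early ch- minus ctrl was -0.12 (95% confidence interval -0.46 to 0.21, limma adjusted p 0.822). Both of these were above 0 without ctrl replicate 375, at 0.0948 and 0.0783. The difference between labeled and unlabeled cells was below 0 without HL60 early ch- replicate 528 (-0.0337), ML1 early ch- replicate 543 (-0.00907), HL60 early ch+ replicate 525 (-0.0243) or ML1 early ch+ replicate 539 (-0.0451).

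Panx3, a pannexin channel of prehypertrophic and hypertrophic chondrocytes and of osteoblasts, was lower in labeled cells and lowest in late cells. In ctrl, Panx3 was 10.30, 9.83 and 9.65. In HL60 early ch- it was 10.07, 9.67 and 9.53, and in ML1 early ch- it was 9.26, 9.02 and 9.41. The HL60 unlabeled libraries overlapped with ctrl, while the ML1 unlabeled libraries were below all of them. In HL60 early ch+, Panx3 was 8.35, 8.62 and 8.49, and in ML1 early ch+ it was 7.90, 7.67 and 8.07. Every labeled library was below every unlabeled and ctrl library. In HL60 late, Panx3 was 7.97, 7.93 and 7.40, and in ML1 late it was 6.0, 7.04 and 5.75. The ML1 late libraries were the lowest of the series, and the HL60 late libraries overlapped with ML1 early ch+ but not with HL60 early ch+.

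Panx3 had group means of 9.92 ± 0.34 in ctrl (SD, n = 3), 9.49 ± 0.36 in early ch- (n = 6), 8.18 ± 0.37 in early ch+ (n = 6) and 7.01 ± 0.95 in late libraries (n = 6). Between late and ctrl it fell by 2.91 (95% confidence interval -3.63 to -2.19, limma adjusted p 6.11e-07), lower in 6 of 6 late libraries. Between early ch- and early ch+ it fell by 1.31 (95% confidence interval -1.90 to -0.72, limma adjusted p 0.00419), in 6 of 6 labeled libraries. Early ch+ minus ctrl was -1.74 (95% confidence interval -2.46 to -1.02, limma adjusted p 0.00247). Late minus early ch+ was -1.17 (95% confidence interval -1.76 to -0.58, limma adjusted p 0.00403), and -0.55 after rescaling to the mean total (limma adjusted p 0.0816). Early ch- minus ctrl was -0.43 for Panx3 (95% confidence interval -1.15 to 0.29, limma adjusted p 0.688, not called), and -0.24 without ctrl replicate 373 (limma adjusted p 0.872).

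**Figure D1:**
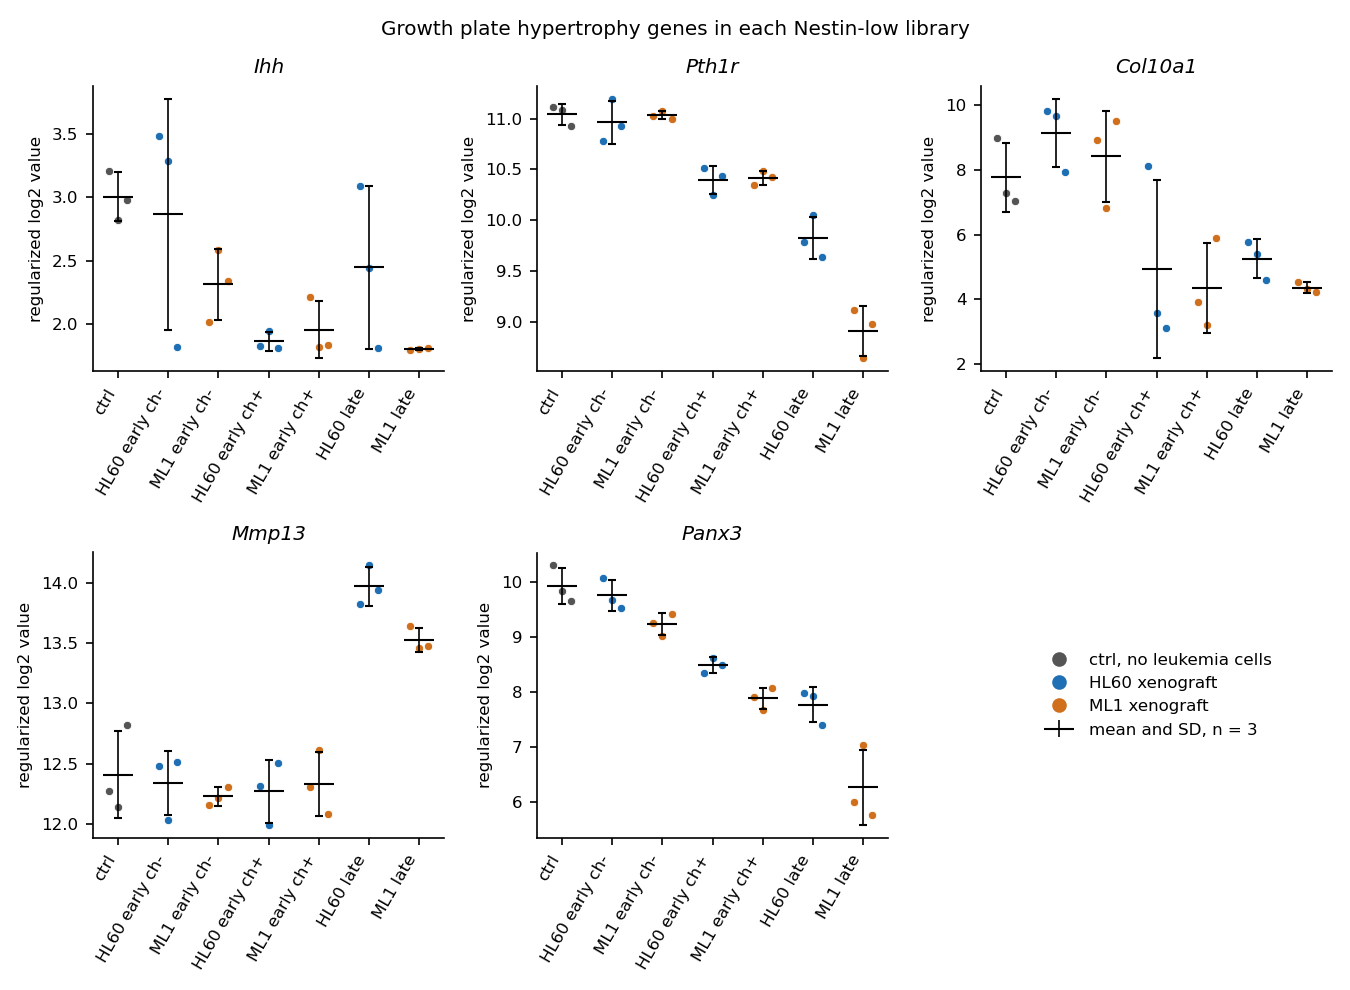
Regularized log2 value of each of the 5 genes in each of the 21 libraries, by group (points), with the mean and SD of the 3 libraries of a group (bars). Mmp13 was above all other libraries in the 6 late libraries, and HL60 early ch+ replicate 523 is the labeled library with the highest Col10a1, at 8.11.

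The comparisons above share libraries, the 3 ctrl libraries entering 3 of them. Between late and ctrl, limma called 3 of the 4 tested members lower and 1 higher, where 11.4% of all 12976 tested genes were called lower and 10.2% higher. For early ch+ against ctrl, 3 of 4 were called lower and 0 higher, against 2.75% of all tested genes lower and 3.41% higher. This count was 1 without ctrl replicate 373 and 1 when genes of all levels entered the fit. Between early ch+ and early ch-, 3 of 4 were called lower and 0 higher, against 2.68% and 3.58% of all tested genes. For early ch- against ctrl, limma called 0 of the 4 in either direction, with 0 of 4 at an unadjusted p under 0.05, against 0.786% of all tested genes called lower and 1.13% higher. Between late and early ch+, 2 of 4 were lower and 1 higher, against 10.9% lower and 8.79% higher over all tested genes. With 4 tested genes each count moves in large steps. The median difference of the 4 tested members was -2.29 between late and ctrl and -0.95 between early ch+ and early ch-, where the medians over all tested genes were 0.02 and -0.02.

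With the lines apart, the same tested members were called in HL60 and in ML1 against ctrl, in late and in labeled cells, while Ihh, outside the tested genes, was called only in ML1 late. Between HL60 late and ctrl, 4 of the 4 tested members were called, against 13.7% of all tested genes in either direction. Col10a1 was at -2.51 there (95% confidence interval -4.27 to -0.75, limma adjusted p 0.0601), Pth1r at -1.21 (limma adjusted p 1.19e-06), Mmp13 at 1.56 (limma adjusted p 4.68e-08) and Panx3 at -2.16 (limma adjusted p 6.81e-07). The Col10a1 call ended without ctrl replicate 373 (-1.90), HL60 late replicate 398 (-2.59) or HL60 late replicate 399 (-2.18), and its adjusted p was 0.0082 without replicate 523 (limma). It also ended with no filter, without the trend and with robust variances (limma adjusted p 0.31, 0.156 and 0.216). Between ML1 late and ctrl, 4 of 4 were called, against 22% of all tested genes. Here Col10a1 was at -3.40 (95% confidence interval -5.16 to -1.64, limma adjusted p 0.00452, or -2.79 and 0.0427 without ctrl replicate 373), Pth1r at -2.12 (limma adjusted p 4.38e-12), Mmp13 at 1.12 (limma adjusted p 4.88e-06) and Panx3 at -3.66 (limma adjusted p 4.18e-12). All 3 libraries of each line lay on the same side of all ctrl libraries for each of these 4 genes. The share of all tested genes separated in this way was not counted. After rescaling to the mean total, Pth1r was at -0.64 in HL60 late (limma adjusted p 0.00365) and -1.31 in ML1 late (limma adjusted p 1.43e-07), and Mmp13 in ML1 late was at 1.93 (limma adjusted p 1.68e-10).

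For labeled cells, 3 of 4 members were called in HL60 early ch+ against ctrl, where 5.33% of all tested genes were called, and 3 of 4 in ML1 early ch+ against ctrl, where 6.69% were. Panx3 differed by -1.44 in HL60 (limma adjusted p 0.000997) and by -2.04 in ML1 (limma adjusted p 6.75e-06), and Pth1r by -0.64 (limma adjusted p 0.0127) and -0.62 (limma adjusted p 0.0124). Col10a1 was at -2.82 in HL60 (limma adjusted p 0.0648), or -4.41 without replicate 523 (limma adjusted p 0.000301), and at -3.42 in ML1 (limma adjusted p 0.0153). Leaving out ctrl replicate 373 ended the Col10a1 call in HL60 (-2.21) and in ML1 (-2.80), as did leaving out HL60 early ch+ replicate 524 (-2.14) or 525 (-1.92) in HL60 and ML1 early ch+ replicate 539 (-2.85) in ML1. With no filter and with robust variances the Col10a1 call ended in both lines, and in HL60 it also ended without the trend and with only the compared groups in the fit (limma adjusted p 0.104 to 0.317). Mmp13 differed from ctrl by -0.14 in HL60 and -0.08 in ML1 and was not called in either (limma adjusted p 0.75 and 0.867). These were above 0 without ctrl replicate 375 (0.0641 in HL60 and 0.125 in ML1), and in ML1 also without ML1 early ch+ replicate 541 (0.0474).

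Labeled and unlabeled cells of the same line also differed in 3 of 4 members in HL60, where 3.92% of all tested genes were called, and in 3 of 4 in ML1, where 4.25% were. Col10a1 differed by -4.20 in HL60 (95% confidence interval -5.96 to -2.44, limma adjusted p 0.00306) and by -4.07 in ML1 (95% confidence interval -5.83 to -2.32, limma adjusted p 0.00412). Without replicate 523 the HL60 difference for Col10a1 was -5.79 (limma adjusted p 5.96e-06). Pth1r differed by -0.57 in HL60 (limma adjusted p 0.0376) and -0.61 in ML1 (limma adjusted p 0.0183), and Panx3 by -1.27 (limma adjusted p 0.00339) and -1.35 (limma adjusted p 0.00171). The Pth1r call in HL60 ended without HL60 early ch+ replicate 524 (-0.49) or HL60 early ch- replicate 528 (-0.45). In both lines it ended after rescaling (-0.44 and -0.43, limma adjusted p 0.164 and 0.154) and without the trend (limma adjusted p 0.159 and 0.108), and with no filter the pooled Pth1r call and the Col10a1 call in ML1 ended (limma adjusted p 0.102 and 0.107). Mmp13 differed by -0.07 in HL60 (limma adjusted p 0.92) and 0.10 in ML1 (limma adjusted p 0.84), with the other sign without HL60 early ch- replicate 529 (0.0145) or HL60 early ch+ replicate 524 (0.0675) in HL60 and without ML1 early ch+ replicate 539 (-0.0350) in ML1. The test of whether this difference was itself different between the lines called 0 of the 4 members (limma, 0 of 4 at an unadjusted p under 0.05), where 0.00771% of all tested genes were called. Unlabeled cells of each line against ctrl gave 0 of 4 in HL60 (limma, 0 of 4 at an unadjusted p under 0.05) and 0 of 4 in ML1 (limma, 1 of 4 at an unadjusted p under 0.05, Panx3 at -0.69), with 1.57% and 2.34% of all tested genes called.

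The lines differed from each other in late disease. Between HL60 late and ML1 late, 2 of 4 members were called, against 4.09% of all tested genes, and both were higher in HL60. Pth1r was higher in HL60 late by 0.91 (95% confidence interval 0.60 to 1.2, limma adjusted p 0.000188) and Panx3 by 1.5 (95% confidence interval 0.96 to 2.04, limma adjusted p 0.000318), with no overlap between the 3 and the 3 libraries for either. Mmp13 was higher in HL60 late by 0.44 with no overlap but was not called (95% confidence interval 0.11 to 0.78, limma adjusted p 0.196), although 3 alternatives called it, quantile normalization (0.62, limma adjusted p 0.0471), library weights (limma adjusted p 0.032) and only the compared groups in the fit (limma adjusted p 0.0635), and after rescaling to the mean total it was 0.20 (limma adjusted p 0.605). Col10a1 was 0.89 higher, again with no overlap and not called (95% confidence interval -0.87 to 2.65, limma adjusted p 0.882). How many of all tested genes had no overlap between HL60 late and ML1 late was not counted. Between the early ch+ groups of the lines 0 of 4 members were called (limma, 1 of 4 at an unadjusted p under 0.05, Panx3 at 0.61), against 0.0154% of all tested genes. Between the early ch- groups 0 of 4 were called (limma, 0 of 4 at an unadjusted p under 0.05), against 0.0539%.

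From early ch+ to late, 3 of 4 members were called in HL60, against 10.2% of all tested genes, and 3 of 4 in ML1, against 16.9%. Pth1r differed by -0.57 in HL60 (limma adjusted p 0.0156) and -1.5 in ML1 (limma adjusted p 9.09e-09), and this difference was itself larger in ML1, by 0.93 (95% confidence interval 0.49 to 1.37, limma adjusted p 0.0142). That test called 1 of 4 members, against 2.5% of all tested genes, and 2 without ML1 late replicate 582, when Panx3 was also called at 1.28 (limma adjusted p 0.0452). Mmp13 rose by 1.70 in HL60 (limma adjusted p 1.5e-08) and by 1.19 in ML1 (limma adjusted p 2.14e-06), and the test of the difference between lines did not pass (0.50, limma adjusted p 0.425). Panx3 differed by -1.62 in ML1 (limma adjusted p 3.12e-05) and by -0.72 in HL60, where the limma adjusted p was 0.0998 and leaving out 1 library ended the call for 15 of the 21, with differences from -0.82 to -0.54. These were ctrl replicate 374, HL60 early ch- replicates 527, 528 and 529, ML1 early ch- replicates 543, 544 and 546, HL60 early ch+ replicates 523, 524 and 525, ML1 early ch+ replicate 538, HL60 late replicates 397, 398 and 399 and ML1 late replicate 581. Without HL60 late replicate 399, Pth1r in HL60 was at -0.48 and no longer called (limma adjusted p 0.113), leaving 1 of 4 members called. After rescaling, Pth1r and Panx3 in HL60 were at -0.10 and -0.25 and not called (limma adjusted p 0.665 and 0.527), and the difference between the lines for Pth1r was 0.64 (limma adjusted p 0.159). In ML1, rescaling brought Pth1r to -0.74 (limma adjusted p 0.000532), Panx3 to -0.85 (limma adjusted p 0.0128) and Mmp13 to 1.95 (limma adjusted p 1.84e-10).

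**Figure D2:**
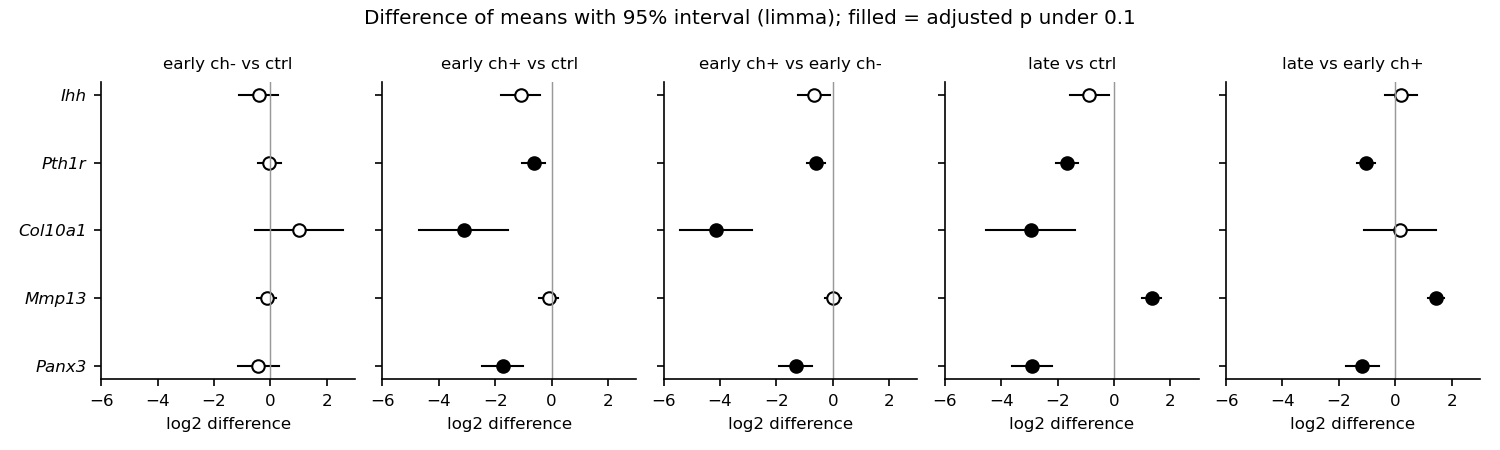
Difference in log2 value of each gene in each comparison, with the 95% confidence interval from limma as bars. The intervals of Mmp13 lie on either side of 0 in the early comparisons and above 0 in those with late libraries, and the intervals of Col10a1 are the widest.

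Levels of different members were compared after division by the length of their merged exons. On that scale of log2 value per kilobase, the order in ctrl was Mmp13 at 10.99 ± 0.36, Pth1r at 9.49 ± 0.10, Panx3 at 8.14 ± 0.34, Col10a1 at 6.12 ± 1.07 and Ihh at 1.40 ± 0.19 (SD, n = 3). Neighbors in this order were separated by more than their spread in ctrl. In early ch-, Col10a1 at 7.13 ± 1.18 and Panx3 at 7.71 ± 0.36 per kilobase were not separated beyond their spread (SD, n = 6). In late libraries the levels per kilobase were 12.33 ± 0.27 for Mmp13, 7.82 ± 0.54 for Pth1r, 5.23 ± 0.95 for Panx3, 3.16 ± 0.63 for Col10a1 and 0.52 ± 0.54 for Ihh (SD, n = 6). The order was thus the same in ctrl and late libraries, with a wider gap between Mmp13 and the other members. In values not divided by length, Mmp13 made up most of the summed level of the 5 genes in every library. Its share was 55.4 to 71.4% in ctrl, 51.3 to 66.6% in early ch-, 71.1 to 79.1% in early ch+ and 92.4 to 95.3% in late libraries. The undivided sum was 12.92 to 13.30 in ctrl and 13.53 to 14.25 in late libraries. The summed levels of the gene lists below, and the gene named as leading each, also come from values not divided by length.

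Of 12 genes of the Ihh and Pthlh loop, all tested, 5 were lower, 0 higher and 7 not called in late against ctrl, with a median difference of -0.69 (0.02 over all tested genes). Pthlh, the ligand of Pth1r, was at -1.74 (limma adjusted p 0.000701), and Hhip, a decoy receptor that hedgehog signaling induces, at -2.61 (limma adjusted p 7.47e-05). Ptch1, the hedgehog receptor and a target of the pathway, was at -1.30 in late (limma adjusted p 2.44e-05), and Gli1, a transcription factor and target of the same pathway, at -1.27 (limma adjusted p 0.0318). In early ch+ against early ch-, 1 loop gene was lower and 1 higher, with a median of -0.01 against -0.02 over all tested genes. These were Ptch1 at -1.19 (limma adjusted p 1.32e-05) and Cdon, a hedgehog co-receptor, at 1.76 (limma adjusted p 1.19e-08). Between early ch+ and ctrl 1 was lower and 1 higher, between early ch- and ctrl 1 was lower and 0 higher, and between late and early ch+ 4 were lower and 0 higher. The summed level of the loop genes was 12.32 to 12.50 in ctrl, 12.04 to 12.33 in early ch-, 12.21 to 12.55 in early ch+ and 11.66 to 12.06 in late libraries.

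Transcription factors and regulators of chondrocyte hypertrophy were listed as 14 genes, of which Foxa2, Foxa3 and Nkx3-2 were not tested. Of the 11 tested, 7 were lower and 0 higher in late than in ctrl, with a median of -0.51 against 0.02 over all tested genes. Mef2c, which drives hypertrophy and Col10a1 expression, was at -2.22 (limma adjusted p 6.87e-08), and Sp7, the osteoblast factor osterix, at -2.45 (limma adjusted p 9.88e-06). Runx2, the main activator of both hypertrophy and osteoblast formation, was at -0.51 (limma adjusted p 0.012), and Sox9, the master factor of cartilage, at -2.24 (limma adjusted p 2.64e-05). In early ch+ against early ch-, 1 regulator was lower, Sox9 at -1.81 (limma adjusted p 8.22e-05), and 1 higher, Sox5 at 1.64 (limma adjusted p 0.000166), with a median of -0.28 against -0.02. Mef2c, Runx2 and Sp7 were at -0.48, -0.28 and -0.57 in that comparison and were not called (limma adjusted p 0.187, 0.21 and 0.367). Between early ch+ and ctrl 2 were lower and 0 higher, between early ch- and ctrl 1 was lower and 0 higher, and between late and early ch+ 5 were lower and 0 higher.

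Other genes of the hypertrophic matrix and its mineralization moved in both directions, as the members did. Of 12 such genes, all tested, 4 were lower and 6 higher in late than in ctrl, with a median of 0.18. Phospho1, a phosphatase of matrix vesicles, was at -3.46 (limma adjusted p 9.89e-06), Alpl, the alkaline phosphatase of mineralizing cells, at -1.93 (limma adjusted p 0.0003) and Ibsp, bone sialoprotein, at -1.46 (limma adjusted p 8.09e-05). Among the higher genes were Bmp6 at 1.66 (limma adjusted p 6.63e-08), Mmp14, a membrane protease that can activate Mmp13, at 0.63 (limma adjusted p 0.00106), Mmp9, a gelatinase of growth plate invasion, at 1.16 (limma adjusted p 0.0634) and Spp1, osteopontin, at 0.55 (limma adjusted p 0.0563). For Mmp9 the lines were apart in late disease, with 8.83 to 9.73 in ML1 late and 7.04 to 7.66 in HL60 late, the latter overlapping with 6.92 to 7.36 in ctrl. By line, Spp1 was at 0.85 in HL60 late (limma adjusted p 0.000578) and at 0.24, not called, in ML1 late (limma adjusted p 0.388), a difference between lines of 0.62 (limma adjusted p 0.0338). Vegfa, the angiogenic factor of hypertrophic cartilage, was at -0.01 (limma adjusted p 0.991). In early ch+ against early ch-, 2 of the 12 were lower and 2 higher, with a median of 0.08, and Spp1 was at -0.65 (limma adjusted p 0.0127). Between early ch+ and ctrl 1 was lower and 2 higher, between early ch- and ctrl 1 and 1, and between late and early ch+ 4 and 5.

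The nearest relatives of the members were listed as 9 genes, of which 4 were tested, and Panx2 was not in the table. Col8a1, the short-chain collagen most like Col10a1, was higher in late than in ctrl by 2.69 (limma adjusted p 8.23e-09), opposite to Col10a1. Mmp8, a neutrophil collagenase, was at -1.0 (limma adjusted p 0.0538), opposite to Mmp13. Panx1 was at 0.82 and was not called (limma adjusted p 0.204). Shh, the hedgehog ligand related to Ihh, sat at its lowest value of -2.13 in all 21 libraries. Labeled and unlabeled cells differed in 0 of the 4 (limma), and between early ch+ and ctrl 1 was higher, Col8a1 at 1.02 (limma adjusted p 0.0138).

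The matrix genes of resting and proliferating cartilage were lower where Col10a1 was called lower in the pooled comparisons. Of 16 listed, Matn1 was not tested, and 15 of the 15 others were lower in late than in ctrl, with a median of -3.55 against 0.02 over all tested genes. In early ch+ against early ch-, 13 of 15 were lower and 0 higher, with a median of -2.68 against -0.02, and between early ch+ and ctrl 13 of 15 were lower, with a median of -3.53. Between early ch- and ctrl 0 of 15 were called by limma, with a median of -0.83, and between late and early ch+ 3 were lower and 0 higher, with a median of 0.28. Col2a1 was at -3.94 in late against ctrl (limma adjusted p 1.48e-07) and -1.82 in early ch+ against early ch- (limma adjusted p 0.00103), and Acan at -3.64 (limma adjusted p 1.01e-05) and -3.21 (limma adjusted p 8.68e-06). The summed level of the cartilage genes was 17.04 to 17.84 in ctrl, 16.46 to 17.16 in early ch-, 15.47 to 16.20 in early ch+ and 12.47 to 15.05 in late libraries. Col2a1 or Col11a1 had the highest value in the list, not divided by length. In late disease the sum was 14.54 to 15.05 in HL60 and 12.47 to 12.94 in ML1, the same order of lines as for Pth1r and Panx3. Whether the loss of Col10a1 followed from fewer cartilage cells among the sorted cells was not tested.

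Markers of osteoblasts and osteocytes fell mostly in late disease. Of 12 listed, 11 were tested (all but Sost), and 9 were lower and 0 higher in late than in ctrl, with a median of -1.93, while in early ch+ against early ch- 1 was lower and 0 higher, with a median of -0.28. Between early ch+ and ctrl 0 of 11 were called by limma, between early ch- and ctrl 0 were lower and 1 higher, and between late and early ch+ 9 were lower and 0 higher. This list shares Ibsp, Alpl, Runx2 and Sp7 with the hypertrophy lists. Their summed level, led by Col1a1, was 20.85 to 21.28 in ctrl, 20.60 to 21.04 in early ch-, 20.42 to 20.69 in early ch+ and 16.73 to 19.52 in late libraries. Bglap, osteocalcin, was at -2.31 in HL60 late (limma adjusted p 8.02e-12) and at -5.63 in ML1 late against ctrl (limma adjusted p 4.53e-22), so it too was higher in HL60 late than in ML1 late, by 3.32 (limma adjusted p 1.1e-15). The part of the osteoblast lineage in the late fall of Pth1r and Panx3 was not tested.

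Markers of CXCL12-abundant reticular cells were mostly higher in late and labeled cells than in ctrl. Of 8 listed and tested, 6 were higher and 1 lower in late than in ctrl (median 0.95), 6 were higher in early ch+ than in ctrl (median 0.85), 1 was higher in early ch- than in ctrl, and 1 was higher in early ch+ than in early ch-. Between late and early ch+, 3 of these markers were higher, 2 lower and 3 not called (median 0.10). Their summed level, led by Cxcl12, was 15.44 to 16.09 in ctrl, 15.53 to 16.48 in early ch-, 16.21 to 16.81 in early ch+ and 16.70 to 17.01 in late libraries. Smooth muscle markers, led by Myh11 in most libraries, were lower in 5 of 7 genes in late than in ctrl and in 6 of 7 in early ch+ than in early ch-, and summed to 13.12 to 14.41 in ctrl, 12.51 to 13.54 in early ch-, 10.69 to 11.65 in early ch+ and 11.35 to 12.56 in late libraries. Labeled cells thus had less of the smooth muscle genes as well as of Col10a1, but the smooth muscle genes were higher again in late than in early ch+ (5 of 7).

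Of 8 osteoclast markers listed, 4 were tested, with 1 lower and 1 higher in late than in ctrl and 0 lower and 1 higher in early ch+ than in early ch-, and Oscar and Ocstamp sat at their lowest value in all 21 libraries. Their summed level was 8.94 to 9.12 in ctrl, 8.51 to 8.99 in early ch-, 8.99 to 9.77 in early ch+ and 8.75 to 10.07 in late libraries. Ctsk or Mmp9 had the highest value in the list, not divided by length. The late sums were 8.75 to 9.05 in HL60, led by Ctsk, and 9.35 to 10.07 in ML1, led by Mmp9. Which cells held the Mmp13 RNA was not tested.

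Blood and red cell genes separated the early libraries from the others. Of 9 myeloid and general blood cell markers, 9 were higher in early ch+ than in ctrl and 8 higher in early ch- than in ctrl, 2 were lower in late than in ctrl, and 0 were called by limma in early ch+ against early ch-. They summed to 6.38 to 8.85 in ctrl, 10.19 to 11.31 in early ch-, 9.82 to 11.22 in early ch+ and 5.93 to 6.56 in late libraries, although the cells had been depleted of hematopoietic cells. S100a9 had the highest value of these markers in most libraries, not divided by length. Of 8 red cell genes, 8 were higher in early ch+ than in ctrl, 7 higher in early ch- than in ctrl and 4 lower in late than in ctrl, with sums, led by Hbb-bs in most libraries, of 8.39 to 9.46 in ctrl, 12.32 to 13.32 in early ch-, 12.09 to 13.66 in early ch+ and 6.59 to 7.05 in late libraries. The ranges of labeled and unlabeled libraries overlapped in both sums. Of 6 tested endothelial markers 0 were called by limma in late against ctrl and 0 in early ch+ against early ch-, and 3 were lower in late than in early ch+, with sums of 8.06 to 8.50 in ctrl, 7.57 to 8.78 in early ch-, 7.97 to 9.14 in early ch+ and 7.85 to 8.67 in late libraries, led by Cdh5 in most. In HL60 the endothelial sums of early ch+ (8.96 to 9.14) were above those of early ch- (7.57 to 8.74). Of 4 tested skeletal muscle markers, 4 were higher in early ch+ than in ctrl and 1 was lower in late than in ctrl, with sums of 5.69 to 6.94 in ctrl, 6.40 to 8.32 in early ch-, 7.23 to 9.25 in early ch+ and 5.10 to 5.21 in late libraries. In ML1 the skeletal muscle sums of early ch+ (8.27 to 9.25) were above those of early ch- (7.12 to 7.75). Their part in the results for the members was not tested.

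**Figure D3:**
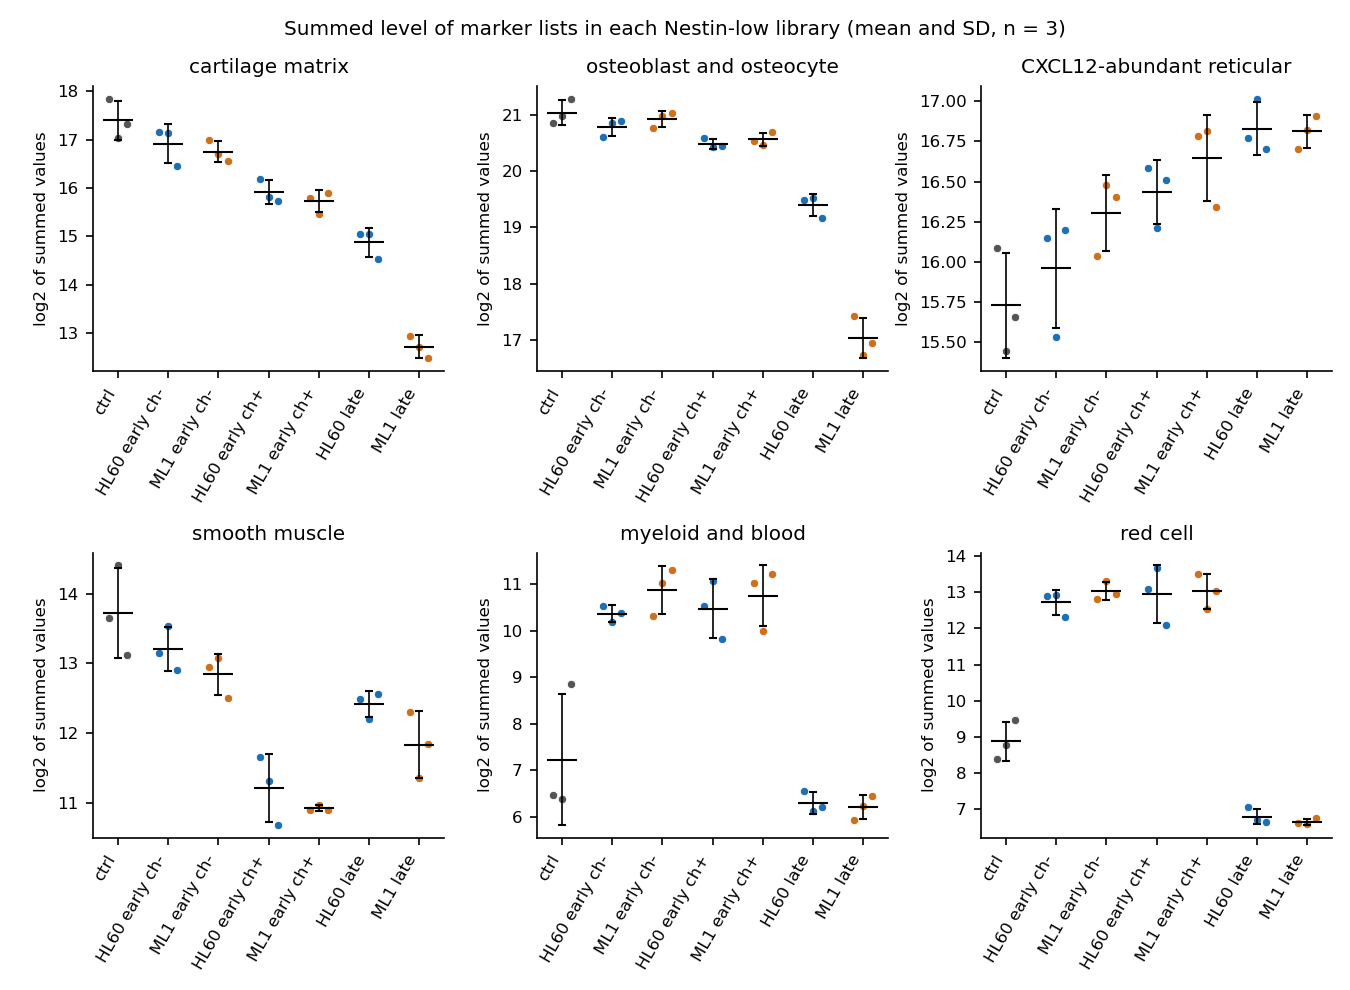
Log2 of the summed values of each marker list in each library, by group (points), with the mean and SD of the 3 libraries of a group (bars). Cartilage and osteoblast sums were lowest in ML1 late, and the blood and red cell sums were highest in the early groups with and without label.

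Over the 21 libraries, which share their groups, the tested genes most like each member by Pearson r were as follows. For Col10a1 they were Hapln1 (r = 0.90), Col9a1 (0.87), Cnmd (0.87), Crispld1 (0.87) and Col9a3 (0.87), and for Ihh they included Snorc (0.86), Crispld1 (0.82), Clec3a (0.82) and Col9a2 (0.80). For Panx3 the nearest gene was Col2a1 (0.96), followed by Chst11 (0.93), Bmp7 (0.93), Utrn (0.93) and Comp (0.93). For Pth1r they were Mef2c (0.97), Sparc (0.97), Gprc5c (0.97), Sp7 (0.97) and Prex1 (0.97), and for Mmp13 Gpc6 (0.95), Serpine2 (0.94), Gsr (0.94), Ltbp1 (0.93) and Pros1 (0.92). Among the members, Pth1r and Panx3 were the most alike (r = 0.90), Col10a1 had r = 0.74 with Panx3 and 0.66 with Pth1r, and Mmp13 had a negative r with each of the other 4, from -0.75 with Pth1r to -0.16 with Ihh. These values describe the 21 libraries and were not tested.

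The 5 genes lie apart in the genome, and 3 of them are on mouse chromosome 9 (GRCm38). Col10a1 (ENSMUSG00000039462) is at chr10:34389981-34397085 on the plus strand, inside the gene Nt5dc1 on the opposite strand, with which it shares 18 exon bases. Nt5dc1 had means of 5.69 in ctrl, 5.88 in early ch-, 6.24 in early ch+ and 5.76 in late libraries. Its part in the values of Col10a1 was not tested. Ihh (ENSMUSG00000006538) is at chr1:74945315-74951672 on the minus strand, and Panx3 (ENSMUSG00000011118) is at chr9:37659902-37669235 on the minus strand. Mmp13 (ENSMUSG00000050578) is at chr9:7272514-7283331 on the plus strand. Pth1r (ENSMUSG00000032492) is at chr9:110722085-110747145 on the minus strand and shares 95 exon bases with Myl3 on the opposite strand, which was at 1.00 to 2.26 in all libraries.

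Promoter sequences from RefSeq (GRCm38.p6) were found for 4 of the 5 members, Col10a1, Ihh, Pth1r (3 starts) and Mmp13, 6 windows of 250 bases before an annotated start, of which 2 for Pth1r lie inside the gene before later starts and 1 of these overlaps a Pth1r exon. Each was searched on both strands for TGTGGT (RUNX factors, in 14% of 32851 promoters), AACAAT (SOX, 9.42%), TGANTCA (AP-1, 6.75%), TGTTTAC (FOXA, 3.17%), the full cyclic AMP response element (1.55%) and a MEF2 element with CTA and TAG 4 bases apart (3.20%). The Mmp13 window held 3 of these, and the other 5 windows held 0. The windows of Mmp13 and Col10a1 are printed because these genes moved in opposite directions in late cells while both belong to the hypertrophic matrix program. Both are read from the plus strand, Mmp13 from chr9:7272264-7272513 and Col10a1 from chr10:34389731-34389980, the latter inside Nt5dc1 and outside its exons. Capitals mark the matches in the Mmp13 window, the reverse complement of the RUNX letters at -118 to -113, FOXA at -81 to -75 and AP-1 at -35 to -29, counted from -1 at the base before the gene start. A match describes the letters only, and a window without one says only that these letters are not in it.
Mmp13: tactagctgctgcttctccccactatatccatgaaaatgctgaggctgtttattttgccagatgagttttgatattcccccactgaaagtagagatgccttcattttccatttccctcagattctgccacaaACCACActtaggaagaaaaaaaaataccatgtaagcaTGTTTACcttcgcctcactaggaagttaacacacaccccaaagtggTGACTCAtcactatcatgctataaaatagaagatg
Col10a1: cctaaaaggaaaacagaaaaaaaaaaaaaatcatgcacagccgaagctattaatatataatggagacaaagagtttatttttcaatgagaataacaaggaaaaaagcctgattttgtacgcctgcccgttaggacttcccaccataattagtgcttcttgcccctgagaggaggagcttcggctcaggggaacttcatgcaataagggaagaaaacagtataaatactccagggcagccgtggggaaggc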

How the data were processed

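The authors aligned the reads to mm10 with STAR 2.5.1b, counted them per gene with RSEM 1.2.29 and normalized them with DESeq2 (1.10.1 in the submitters' notes), and the deposited values were treated as regularized log2 counts, because they run from -2.33 to 22.44 and cannot be log10 counts, although the methods name log10. Read counts were not used here, so depth and counting error are unknown. Genes with a mean of at least log2 of 10 over the 21 libraries were tested with limma 3.58.1 in R 4.3.3 (moderated variances with a trend, two-sided), in 1 fit with 4 groups (both lines pooled) and 1 with 7 groups, and p was adjusted by Benjamini-Hochberg over the 12976 genes of each comparison, with calls under 0.1. Ihh came from the same fits without the filter. The pooled test of late against ctrl was tried on simulated data with independent noise. Dependence between labeled and unlabeled libraries was not simulated. The members and the gene lists were chosen with earlier results of these data known. All 5 members were to be named, and of each list the called genes of largest change, at most 4, with genes the pathway needs, and for each member up to 5 genes of highest Pearson r. Alternatives were another filter or none, 3 other scalings, an added pseudocount of 1, no trend, robust variances, library weights, fits of fewer libraries or of the other group structure, a threshold of 0.05 and leaving out each library. Gene positions were from GENCODE for GRCm38. Figures were drawn with matplotlib 3.10.9 in Python 3.11.15.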

Additional observations from a re-analysis of the deposited data

Results flagged for a closer look

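In the 6 early ch+ libraries, Ihh in ML1 replicate 538 was at 2.21, apart from the other 5, which were at 1.81 to 1.95. The gap to the next library was 0.67 of the range of the 6 values, and chance alone sets 1 library apart in some groups. Here 4 of the 6 values were within 0.05 of the lowest value of Ihh, so the gap says little.

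HL60 and ML1 differed late in the disease. Pth1r was higher in HL60 late than in ML1 late by 0.91 (limma adjusted p 0.000188) and Panx3 by 1.5 (limma adjusted p 0.000318), each in 3 of 3 libraries. The change of Pth1r from early ch+ to late also differed between the lines, by 0.93 (limma adjusted p 0.0142), a call that ended after rescaling to the mean total (0.64, limma adjusted p 0.159) and without the trend (limma adjusted p 0.113).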

How the results depend on the processing

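No paired analysis was run, because no replicate number was shared between groups and the labels do not say which libraries belong together. Labeled and unlabeled libraries were thus treated as independent although these cells came from the same marrow. In late against ctrl the 4 tested members were called under all 14 alternatives and without each of the 21 libraries, with Col10a1 at -3.40 to -2.26, Pth1r at -2.12 to -0.98, Mmp13 at 1.12 to 2.03 and Panx3 at -3.66 to -2.16 over the alternatives. The alternatives were not run for each member in each comparison of the lines. Over the differences and member counts for which they were, 2808 values kept their direction and side of the threshold, 70 lost a call, 18 gained one, 23 changed sign and 7 counts changed by more than 1.5 times.

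Rescaling each library to the mean total moved the median of all tested genes in late against ctrl to 0.71, with 8302 genes called (93.8% higher) in place of 2795 (47.3% higher), because the late totals are lower. Beside that median of 0.71, the rescaled differences themselves were -2.26 for Col10a1, -0.98 for Pth1r, -2.22 for Panx3 and 2.03 for Mmp13. In early ch+ against early ch- the median moved to 0.13 and 1070 genes were called (78.6% higher) in place of 812 (57.1% higher), and in early ch+ against ctrl 66.7% of 811 calls were higher in place of 55.4% of 800. In late against early ch+ the median moved to 0.63, with 9031 calls (93.5% higher) in place of 2555 (44.6%), and Pth1r was at -0.42, Panx3 at -0.55, Mmp13 at 2.06 and Ihh at 0.83, which was called.

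The members called in early ch+ against ctrl numbered 1 in place of 3 with no filter on low values, where more genes were tested, and 1 to 3 without 1 library. From early ch+ to late in HL60 they numbered 1 in place of 3 after rescaling and 1 to 3 without 1 library. For the difference between the lines in this change they numbered 0 in place of 1 after rescaling, 0 without the trend and 1 to 2 without 1 library. The sign changed for Mmp13 in early ch+ against early ch- (-0.00470 with quantile normalization, -0.00412 with library weights, -0.0707 with HL60 and ctrl alone), for Ihh in late against early ch+ (-0.15 with ML1 and ctrl alone), and after rescaling for Ihh in HL60 late against ctrl (0.0142) and Mmp13 in HL60 early ch+ against early ch- (0.0502). Ihh in early ch+ against ctrl was called with quantile normalization, equal medians, only the compared groups, the mean of 7 groups, and ML1 with ctrl alone (adjusted p 0.018 to 0.0993), and in late against ctrl with ML1 and ctrl alone (-1.20, adjusted p 0.00426). Panx3 from early ch+ to late in HL60 was not called with no filter (adjusted p 0.246), quantile normalization (0.114), no trend (0.176) or robust variances (0.1001). Without the trend the adjusted p of the difference between lines for Pth1r was 0.113. The threshold of 0.05 ended the calls with adjusted p between 0.05 and 0.1. The cause of these changes was not tested.

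Leaving out 1 library gave values on both sides of 0 for Mmp13 in early ch+ against ctrl (-0.24 to 0.0948), early ch- against ctrl (-0.26 to 0.0783), early ch+ against early ch- (-0.0451 to 0.0779), HL60 early ch+ against ctrl (-0.27 to 0.0641) and early ch- (-0.22 to 0.0675), and ML1 early ch+ against ctrl (-0.22 to 0.13) and early ch- (-0.0350 to 0.23). The same held for Pth1r in early ch- against ctrl (-0.10 to 0.00293) and Col10a1 in late against early ch+ (-0.14 to 0.86). None of these was called. In the comparisons of 1 line, leaving out a library left 2 in a group.

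Read counts were not used here, so the number of reads behind a value is unknown. For Ihh, 9 of 21 libraries were at its lowest value, where few reads cannot be told from none. Col10a1 was under the limit of 3.32 in 2 early ch+ libraries. With 3 libraries in a group, the interval of Col10a1 in late against ctrl ran from -4.52 to -1.39, the widest of the tested members.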
